A study of Mus musculus with 18 samples.

Results

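Undifferentiated mouse embryonic stem (ES) cells of the Stra8-EGFP/Rosa26 background, called ES Stra8 here, were set against undifferentiated ES cells of the 129SV background. The labels of 6 of the 18 arrays name these groups, 3 arrays in each, and all 19938 genes with a gene symbol of their own were read on them. The other 12 arrays hold undifferentiated adult stem cells of the Stra8-EGFP/Rosa26 background (adult Stra8) and of 129SV (adult 129SV), and differentiated ES and adult cells of 129SV, again with 3 arrays per group. The series title calls the adult cells germline stem cells and asks how similar their transcriptomes are to those of ES cells. Stra8 is induced by retinoic acid in germ cells before meiosis, Rosa26 is a widely expressed locus used to carry transgenes, and EGFP is a fluorescent reporter that has no probe set among the named genes. The labels describe neither allele further, nor the lines, sex, passage, culture medium, feeder cells or hybridisation dates. Genetic background, cell line and culture therefore cannot be told apart in any difference between ES Stra8 and ES 129SV, and the p-values measure the spread between arrays that the labels call biological replicates.

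Each array was hybridised from 300 ng of total RNA, and the values are log2 signals, so a log2 change of 1 is a 2-fold change. A change is the mean of the 3 ES Stra8 arrays minus the mean of the 3 ES 129SV arrays, given with its standard error (SE). Signals under log2 7 are called dim here, and where a group is dim the size of a change is uncertain, since no detection call is at hand. A gene was called changed at an adjusted p under 0.05 in limma with Benjamini-Hochberg adjustment over all genes. Across genes, the mean correlation between arrays was 0.9978 inside ES Stra8, 0.9975 inside ES 129SV and 0.9724 between the ES groups. Between ES Stra8 and adult Stra8 arrays it was 0.9898. These correlations are over genes of whole arrays and describe likeness, with no test.

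Type I interferons are secreted when cells sense foreign nucleic acid. They bind a receptor whose kinases activate STAT2, which works with IRF9 at a promoter element, the ISRE, of genes for antiviral proteins. Mouse ES cells are known for a weak interferon response, and for self-renewal under LIF and STAT3 with the factors Pou5f1, Sox2 and Nanog. Low oxygen stabilises HIF transcription factors, which bind the short HRE element of genes for glycolysis, glucose uptake and angiogenesis. In the imprinted Dlk1-Dio3 domain of chromosome 12, the maternal chromosome transcribes the noncoding RNAs Meg3 and Rian and a long array of miRNA genes, and the paternal chromosome transcribes Dlk1, Rtl1 and Dio3. In mouse pluripotent lines the maternal transcripts of this domain are known to be silenced in some lines.

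The changes of at least 2-fold between ES Stra8 and ES 129SV cells were mostly falls. Interferon-induced genes, chemokines, genes of the HIF response and glycolysis, and fibroblast genes were lower in ES Stra8. The nuclear receptor gene Nr1h5, the synaptonemal complex genes Sycp3 and Sycp1, the Nodal antagonists Lefty2 and Lefty1, and the miRNA genes of the Dlk1-Dio3 domain were higher. Of all genes, 4255 rose (21.3%) and 3993 fell (20%), and 905 of them changed at least 2-fold (4.54%), of which 224 rose (1.12%) and 681 fell (3.42%). The shares of 21.3% and 20% are the background for the list counts below. The changes ran from -4.66 to 4.61 on the log2 scale with a median of -0.013. The 95% confidence interval excluded changes of 2-fold or more for 92.8% of genes. The ES groups did not overlap for 56.9% of genes: the 3 ES Stra8 arrays lay above all 3 ES 129SV arrays for 28.9% of genes and below them for 28.1%.

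Of the 681 genes with a fall of at least 2-fold, ES 129SV had the highest mean of the 4 undifferentiated groups for 660 (96.9%), and of all 6 groups for 528 (77.5%). Over all genes tested these shares were 22.3% and 12.2%. Of the 224 genes with such a rise, ES Stra8 had the highest mean of the 4 undifferentiated groups for 172 (76.8%, against 19.4% of all genes), while ES 129SV had the lowest for 137 (61.2%, against 23.9%). The choice of genes by the ES contrast raises these shares by itself, since it already orders ES Stra8 and ES 129SV.

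Antiviral genes gave the largest falls. Of 110 genes measured in the lists of interferon signalling, antiviral effectors, nucleic acid sensors, interferon-induced GTPases, MHC class I presentation and chemokines, 96 fell and 2 rose, and 71 fell at least 2-fold. They made up 15 of the 20 largest falls. Fewer cells that express a gene and less RNA per cell cannot be told apart in these bulk samples.

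To show the ISRE, the promoter windows of 3 of the largest falls are printed, from 250 bases before to 50 bases after the transcription start (RefSeq, GRCm38.p6). Matches on either strand to the core letters of the ISRE, GAAA followed by any 2 bases and GAAA again, are in capitals. The windows are chr19:34583279-34583578 on the plus strand for Ifit3, chr12:26456403-26456702 on the minus strand for Rsad2 and chr5:92348840-92349139 on the minus strand for Cxcl10.
Ifit3: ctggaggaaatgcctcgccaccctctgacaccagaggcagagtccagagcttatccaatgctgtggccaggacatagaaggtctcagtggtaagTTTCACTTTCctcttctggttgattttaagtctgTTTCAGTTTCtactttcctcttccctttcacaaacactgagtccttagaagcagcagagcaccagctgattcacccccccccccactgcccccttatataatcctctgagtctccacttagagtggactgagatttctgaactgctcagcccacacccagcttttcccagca
Rsad2: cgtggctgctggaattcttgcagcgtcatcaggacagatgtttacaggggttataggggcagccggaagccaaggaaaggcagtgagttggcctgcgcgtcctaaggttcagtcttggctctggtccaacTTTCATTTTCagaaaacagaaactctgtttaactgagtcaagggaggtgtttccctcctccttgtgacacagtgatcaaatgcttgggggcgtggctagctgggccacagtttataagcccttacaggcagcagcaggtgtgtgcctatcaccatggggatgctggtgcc
Cxcl10: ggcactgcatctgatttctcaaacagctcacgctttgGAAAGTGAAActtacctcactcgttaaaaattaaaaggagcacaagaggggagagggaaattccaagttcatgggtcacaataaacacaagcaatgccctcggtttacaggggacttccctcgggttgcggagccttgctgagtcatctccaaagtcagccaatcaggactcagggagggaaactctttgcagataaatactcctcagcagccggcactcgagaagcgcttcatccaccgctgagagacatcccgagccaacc
The matches began 156 and 122 bases before the start of Ifit3, 120 bases before that of Rsad2 and 213 bases before that of Cxcl10. The letters were present in 3.89% of the 15614 genes with a promoter window. Among genes with a window they were present in 11 of 24 antiviral effectors (45.8%), 5 of 13 nucleic acid sensors (38.5%), 4 of 4 interferon-induced GTPases, 3 of 11 MHC class I genes, 4 of 18 signalling genes and 2 of 12 chemokines. They were present in 68 of 514 genes with a fall of at least 2-fold (13.2%) and in 6 of 139 with such a rise (4.32%). Irf7 had a window without a match, and Cxcl11 had no window. A match is a run of letters and was not tested for binding.

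Ifit3, an interferon-induced protein of the IFIT family, had 6.21, 6.24 and 6.24 in ES Stra8, against 10.88, 10.97 and 10.83 in ES 129SV, a change of -4.66 ± 0.09 (limma adjusted p = 2.18e-15). Rsad2, the antiviral enzyme viperin, had 6.12, 6.26 and 6.18 in ES Stra8, against 10.69, 10.72 and 10.62 in ES 129SV (-4.49 ± 0.10). Irf7, the transcription factor that amplifies interferon production, had 8.14, 8.24 and 7.98 in ES Stra8, against 12.53, 12.52 and 12.52 in ES 129SV (-4.40 ± 0.09, limma adjusted p = 3.41e-15). The groups did not overlap for any of these genes, as for 56.9% of all genes. For each of them, every ES 129SV array lay above every array of the 3 other undifferentiated groups. The plot of 12 genes by array shows Ifit3, Irf7 and Cxcl10 beside genes of the later paragraphs. Ifit3 shares most of its sequence with Ifit3b (also -4.66), so probes may read both.

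**Figure D1:**
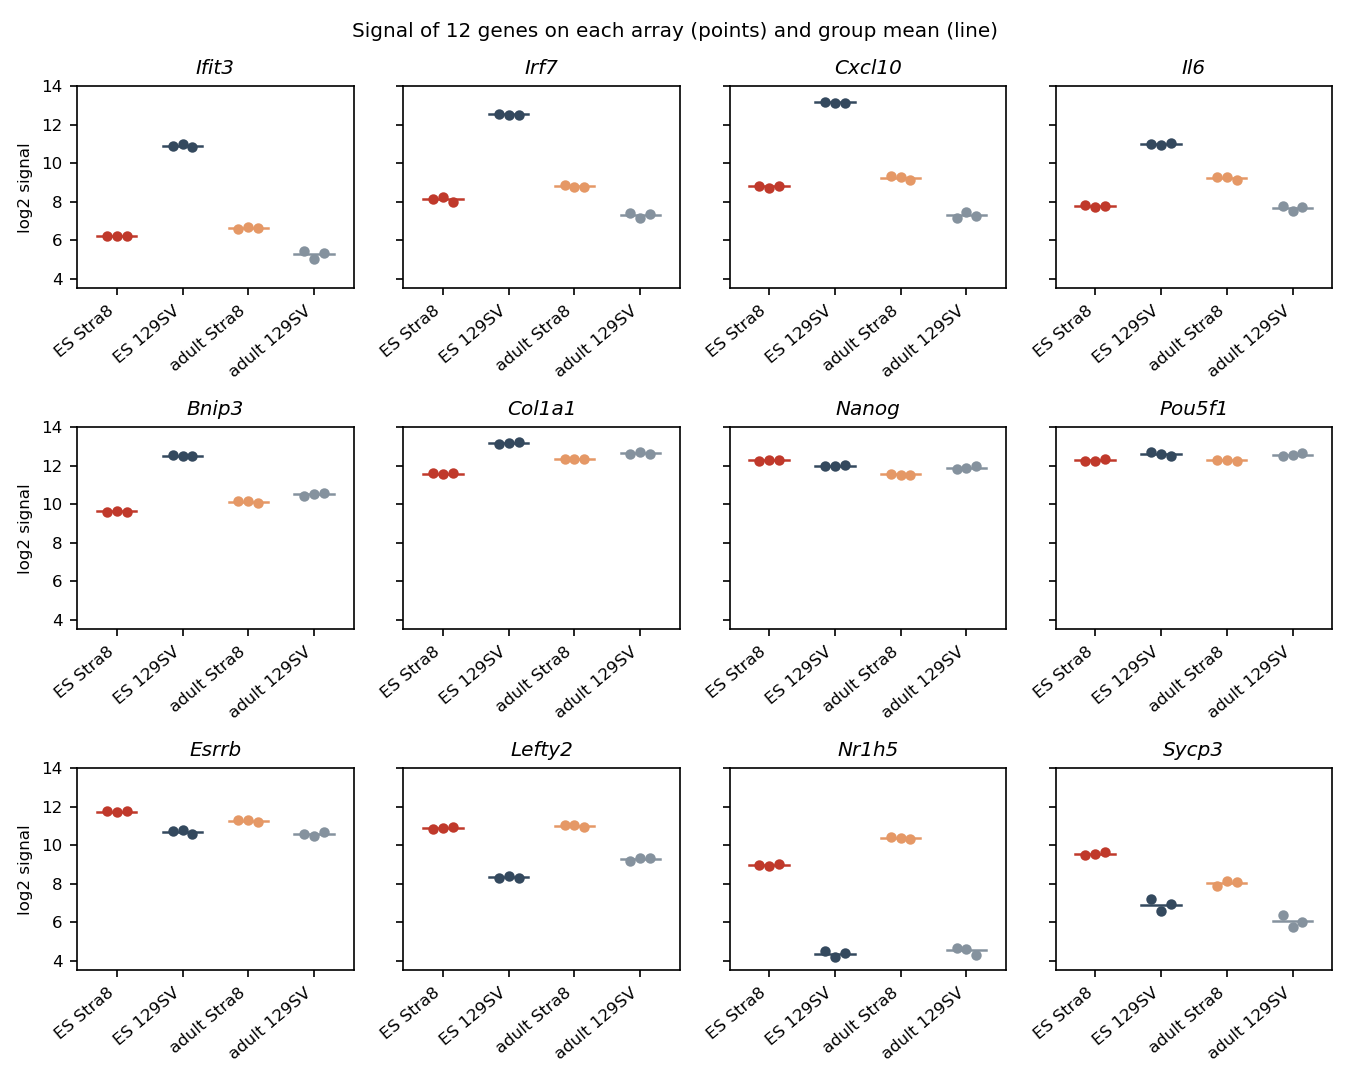
Log2 signal (vertical axis) of 12 genes on the 3 arrays (points) of each undifferentiated group, with the group mean as a line. Ifit3, Irf7, Cxcl10, Il6 and Bnip3 stand highest in ES 129SV, while Nr1h5 and Sycp3 are higher in both Stra8 groups than in both 129SV groups, and Nanog and Pou5f1 differ by less than 2-fold between the ES groups.

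Genes of the interferon pathway itself had a smaller median change than the antiviral effectors. In the interferon signalling list 0 rose and 14 of 19 fell, with a median change of -0.81. Ifnb1, the interferon-beta ligand, had 5.0, 5.03 and 4.96 in ES Stra8, against 5.22, 5.11 and 5.13 in ES 129SV, a change of -0.16 ± 0.11 that did not pass (limma adjusted p = 0.300). Both groups were dim for Ifnb1, so these values cannot show whether the ligand differed. The receptor chains fell: Ifnar1 by 0.60, Ifnar2 by 1.09, Ifngr1 by 0.76 and Ifngr2 by 1.05 on the log2 scale. So did the kinases Jak1 (-0.81) and Jak2 (-1.45), the signal transducer Stat2 (-1.71 ± 0.06) and its partner Irf9 (-1.13 ± 0.06), while the kinase Tyk2 (-0.03) and the sensor-activated factor Irf3 (-0.04) did not pass. Usp18, a feedback inhibitor of the receptor, fell by 4.17. Isg15 was not analysed here.

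Antiviral effectors fell nearly throughout. Of 32 measured, 31 fell, 27 of them at least 2-fold, and Ifitm1 rose (0.35), with a median of -2.13. Mx2, an interferon-induced GTPase of the Mx family, had 5.63, 5.73 and 5.47 in ES Stra8, against 9.35, 9.39 and 9.53 in ES 129SV (-3.81 ± 0.10). The RNA-sensing synthetase Oas2 fell by 3.11, the membrane tether Bst2 by 2.14 and the RNA-dependent kinase Eif2ak2 by 1.51. Ifi27l2a (-0.26) fell only narrowly and lost its call when an array was left out. Among nucleic acid sensors 13 of 17 fell and 0 rose (median -1.03), led by Ifi205 (-4.64) and Ifih1, the sensor of long double-stranded RNA (-3.28 ± 0.08). Members of the Ifi200, Oas and Gbp families have near-identical relatives, and how far their probes are shared was not tested.

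All 8 interferon-induced GTPases measured fell, with a median of -2.79. Iigp1, which attacks vacuoles of intracellular parasites, had 5.24, 5.14 and 5.44 in ES Stra8, against 9.86, 9.93 and 9.77 in ES 129SV (-4.58 ± 0.15), and Gbp3 fell by 3.89. In the MHC class I list 15 of 16 fell and 0 rose (median -1.28). The light chain B2m had 11.32, 11.26 and 11.44 in ES Stra8, against 12.85, 12.88 and 12.86 in ES 129SV (-1.52 ± 0.09), the peptide transporter Tap1 fell by 2.20, its partner Tap2 by 0.99, the loading factor Tapbp by 2.30 and the immunoproteasome subunit Psmb8 by 1.67. H2-K1 and H2-D1 were not analysed here. Nlrc5, a transactivator of class I genes, had a change of -0.00 and did not pass.

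Chemokines, which guide leukocytes, followed. In their list 15 of 18 fell, 1 rose and the median was -1.17. Cxcl10 had 8.83, 8.73 and 8.82 in ES Stra8, against 13.17, 13.13 and 13.14 in ES 129SV, a change of -4.35 ± 0.08 or 20.4-fold (limma adjusted p = 1.91e-15). Cxcl11 changed by the same amount (-4.35 ± 0.14), and Cxcl9 (-3.50), Ccl5 (-3.49) and Cxcl2 (-3.26) also fell, while Ccl25 rose by 0.35 ± 0.08. The interferon-induced ligands Cxcl9, Cxcl10 and Cxcl11 share the receptor Cxcr3.

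Of 24 NF-kB targets and acute-phase genes 21 fell and 0 rose (median -1.13). Il6, an inflammatory cytokine, had 7.84, 7.73 and 7.76 in ES Stra8, against values between 10.94 and 11.02 in ES 129SV (-3.21 ± 0.13, limma adjusted p = 6.88e-12). The NF-kB inhibitors Tnfaip3 (-2.17 ± 0.07) and Nfkbia (-1.16 ± 0.06) fell as well, as did the pentraxin Ptx3 (-2.26), the growth factors Csf2 (-1.59) and Csf3 (-1.36) and the prostaglandin synthase Ptgs2 (-1.21). The core letters of the kappaB element, GGG followed by any 2 bases and TTTCC, read on both strands, were present in 5 of 17 windows of this list (29.4%) and 4 of 12 of chemokines, against 1.83% of all windows. In the LIF and STAT3 list 2 of 15 rose and 8 fell (median -0.25), against 21.3% and 20% of all genes. Lif, the cytokine that maintains ES cells, had 8.77, 8.63 and 8.69 in ES Stra8, against 10.43, 10.35 and 10.38 in ES 129SV (-1.69 ± 0.07). The related cytokine Il11 fell by 2.55 and the receptor Osmr by 1.26, the receptor Lifr (-0.16) and Stat3 (-0.04) did not pass, and the shared receptor chain Il6st rose by 0.20, a call lost when some arrays were left out.

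**Figure D2:**
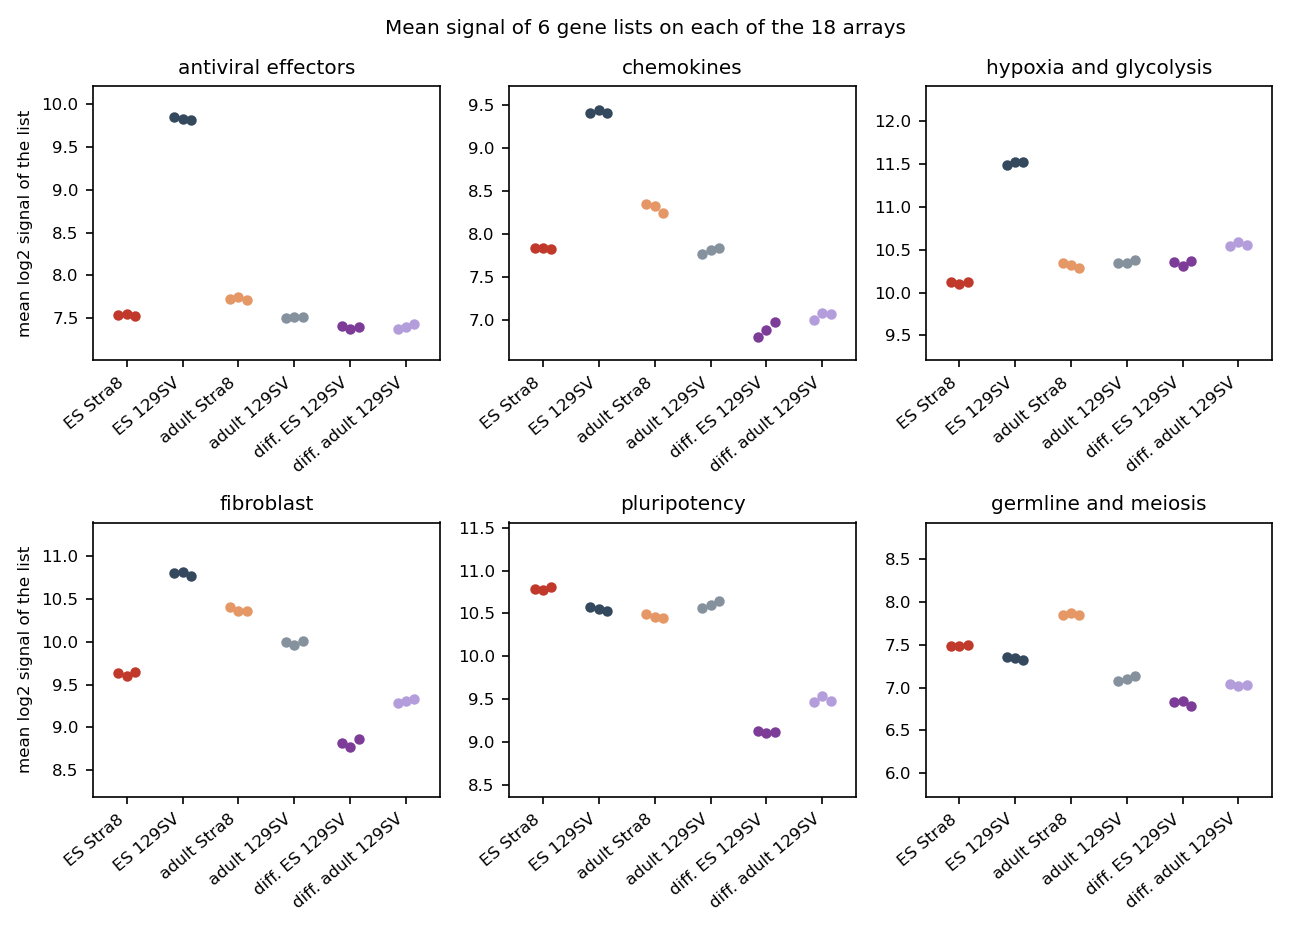
Mean log2 signal over the genes of 6 lists (vertical axis) on all 18 arrays, with 3 points per group. Antiviral effectors and hypoxia and glycolysis genes stand apart in ES 129SV from the 5 other groups, while fibroblast genes are lowest in the differentiated groups.

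The mean signal of the antiviral effectors was 7.53 to 7.55 on the ES Stra8 arrays, against 9.81 to 9.85 on the ES 129SV arrays. It was 7.71 to 7.75 in adult Stra8, against 7.5 to 7.52 in adult 129SV, and 7.37 to 7.43 in differentiated adult 129SV and 7.38 to 7.41 in differentiated ES 129SV. ES 129SV stood apart from all 5 other groups. The plot of 6 lists on all 18 arrays gives the same for the chemokines, whose mean was 7.82 to 7.84 in ES Stra8 and 9.41 to 9.45 in ES 129SV.

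Genes of the HIF response and glycolysis were lower in ES Stra8. Of 33 measured, 30 fell, 20 of them at least 2-fold, and 0 rose, with a median of -1.14. Bnip3, a mitophagy receptor and a direct HIF target, had 9.61, 9.65 and 9.59 in ES Stra8, against 12.54, 12.52 and 12.49 in ES 129SV, a change of -2.90 ± 0.05 or 7.47-fold (limma adjusted p = 1.50e-15). Ndrg1, a hypoxia-induced stress protein, had 8.84, 8.74 and 8.83 in ES Stra8, against 12.20, 12.20 and 12.23 in ES 129SV (-3.41 ± 0.07). Adm, the vasodilator peptide adrenomedullin, had 9.36, 9.34 and 9.38 in ES Stra8, against 12.33, 12.47 and 12.40 in ES 129SV (-3.04 ± 0.06). The groups did not overlap for any of these, as for 56.9% of all genes.

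Other members of the list fell as follows. The HIF hydroxylases Egln3 (-2.61) and Egln1 (-1.94), the collagen hydroxylases P4ha1 (-2.41) and P4ha2 (-2.28), the glucose transporter Slc2a1 (-2.15 ± 0.05), the glycolytic regulator Pfkfb3 (-2.62) and the lactate exporter Slc16a3 (-1.84) fell. The glycolytic enzymes Hk2 (-1.46), Ldha (-1.0) and Pgk1 (-1.02) and the angiogenic factor Vegfa (-1.23) fell too. Pgf, placental growth factor, which is not in the list, fell by 4.10 ± 0.08. The transporter Slc2a3 (0.06) and the cytokine Mif (-0.13) did not pass. Hk1 did not pass (0.02), and with the mean of its probe sets in place of the brightest it was -0.92 (limma adjusted p = 2.8e-09). The mean signal of the list was 10.10 to 10.12 in ES Stra8 and 11.49 to 11.52 in ES 129SV, and between 10.29 and 10.59 on the arrays of the 4 other groups.

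The promoter window of Bnip3 (chr7:138909457-138909756, minus strand, RefSeq GRCm38.p6) is printed to show the HRE core, ACGTG on either strand, in capitals. The matches on both strands overlap, from 108 bases before the start.
Bnip3: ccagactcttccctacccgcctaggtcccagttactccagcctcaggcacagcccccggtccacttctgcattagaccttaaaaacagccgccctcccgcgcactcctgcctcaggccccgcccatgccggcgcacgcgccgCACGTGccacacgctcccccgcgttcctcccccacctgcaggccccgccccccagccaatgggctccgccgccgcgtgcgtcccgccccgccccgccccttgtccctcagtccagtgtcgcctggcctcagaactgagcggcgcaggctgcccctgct
These letters, chosen after the values were seen, were present in 24 of 30 windows of the list and in 24.4% of all windows. Among windows of genes with a fall of at least 2-fold they were present in 28.6%, and among those with such a rise in 38.1%.

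Fibroblast genes and matrix enzymes were lower in ES Stra8 as well. In the fibroblast list 24 of 26 fell, 13 at least 2-fold, and 0 rose (median -1.04). Col1a1, a chain of type I collagen, had 11.61, 11.56 and 11.59 in ES Stra8, against 13.12, 13.15 and 13.21 in ES 129SV (-1.57 ± 0.06), and the matrix protein Postn fell by 2.21, Col3a1 by 1.91, the mesenchymal factor Prrx1 by 1.6 and the surface protein Thy1 by 0.75. Fn1 (-0.02) and S100a4 (-0.27) did not pass. Among 15 metalloproteinases and their inhibitors 12 fell and 1 rose (median -0.83), led by the stromelysin Mmp10 (-2.39), the gelatinase Mmp9 (-1.79) and the inhibitor Timp3 (-1.75), while Mmp11 rose (0.31).

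The fibroblast mean was 9.60 to 9.65 in ES Stra8, against 10.77 to 10.81 in ES 129SV. In adult cells it was 10.36 to 10.40 in Stra8, against 9.96 to 10.01 in 129SV. Adult Stra8 had a higher fibroblast mean than adult 129SV and than ES Stra8, and its antiviral mean (7.71 to 7.75) lay below every ES 129SV array. The part of fibroblast-type cells in the interferon, chemokine and hypoxia results was not tested.

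Other cell types that the cultures could hold showed smaller changes. For scale, 21.3% of all genes rose and 20% fell. In the macrophage and blood list 1 of 15 rose and 8 fell (median -0.23, and none by 2-fold), and its mean was 7.10 to 7.12 in ES Stra8, against 7.39 to 7.43 in ES 129SV. The leukocyte phosphatase Ptprc had 5.77, 5.73 and 5.58 in ES Stra8, against 6.10, 5.90 and 5.91 in ES 129SV, a narrow fall (-0.28 ± 0.08) whose call was lost when some arrays were left out. Somatic genes of the testis rose in 1 and fell in 6 of 14 (median -0.18), with the inhibin subunit Inha at -1.50 and the cholesterol carrier Star at 0.74.

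**Figure D3:**
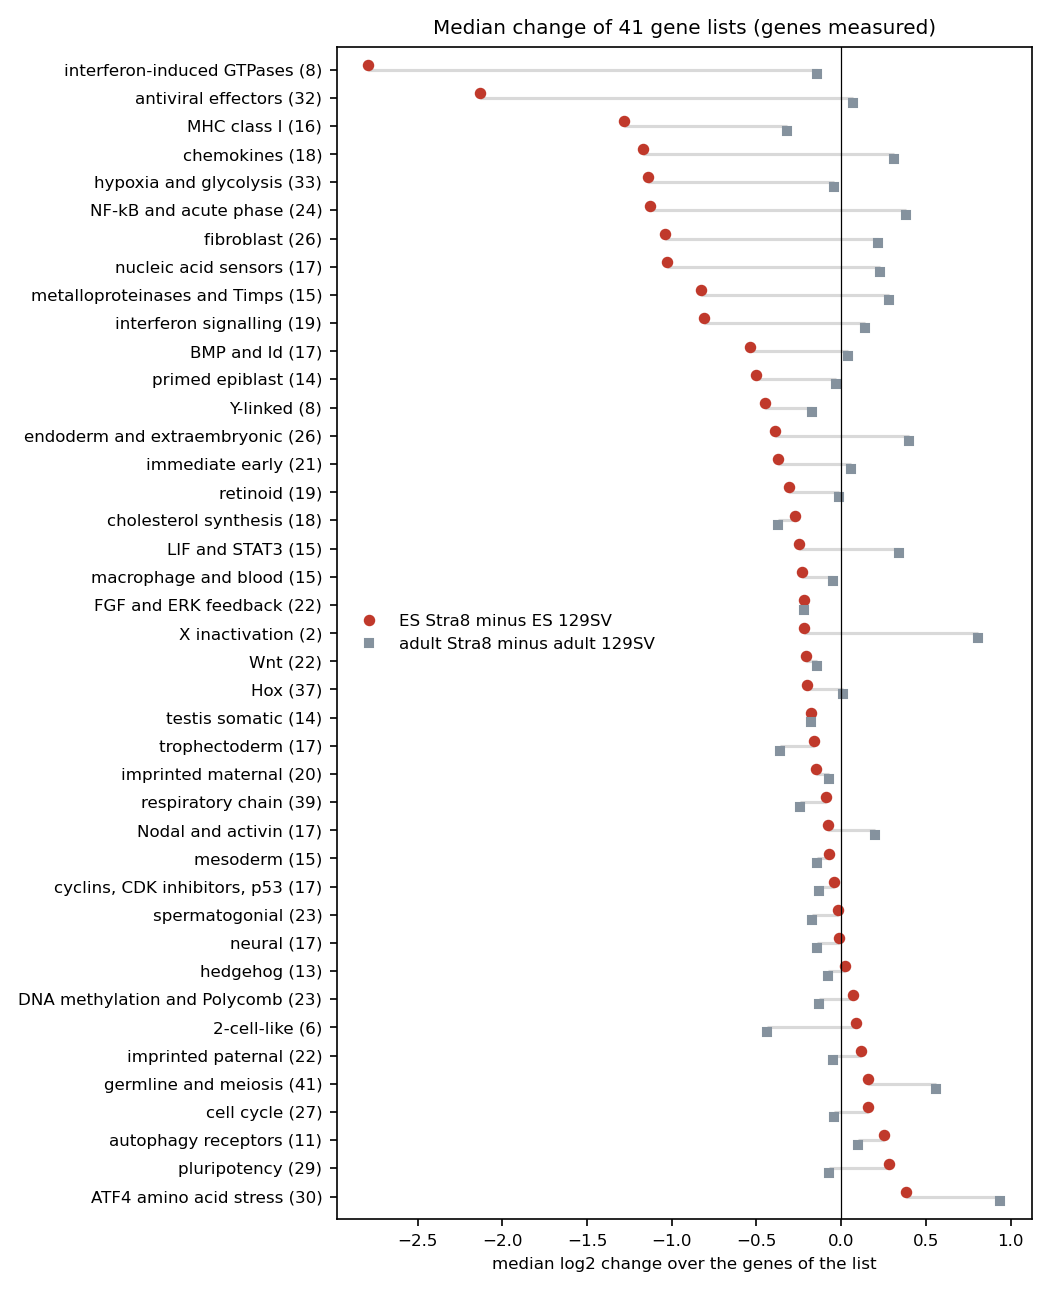
Median log2 change (horizontal axis) over the measured genes of each of 41 lists (number in brackets), for ES Stra8 minus ES 129SV (circles) and adult Stra8 minus adult 129SV (squares). The ES medians run from -2.79 for interferon-induced GTPases to 0.38 for ATF4 targets, and the adult medians from -0.44 for 2-cell-like genes to 0.94 for ATF4 targets.

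Pluripotency genes changed in both directions, with more rises than falls and mostly by less than 2-fold. In the list 15 of 29 rose and 4 fell, against 21.3% and 20% of all genes. The median was 0.28, as the plot of list medians shows, and 3 genes rose and 0 fell at least 2-fold. Nanog had 12.25, 12.28 and 12.28 in ES Stra8, against 11.98, 11.98 and 12.01 in ES 129SV (0.28 ± 0.05, limma adjusted p = 0.000176). Pou5f1 had 12.26, 12.26 and 12.33 in ES Stra8, against 12.68, 12.62 and 12.51 in ES 129SV (-0.32 ± 0.10, limma adjusted p = 0.0137), and Sox2 had 11.88, 11.90 and 11.92 in ES Stra8, against 11.60, 11.58 and 11.68 in ES 129SV (0.29 ± 0.11, limma adjusted p = 0.0458). The arrays did not overlap for any of the 3, as for 56.9% of all genes. The call of Sox2 was lost without any single ES array and that of Pou5f1 without ES 129SV replicate 1 (limma adjusted p = 0.0587). Both ES groups lay above the differentiated ES cells, whose mean was 9.46 for Pou5f1 and 9.47 for Sox2.

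The largest rises of the list were Tcl1, Dppa3 and Esrrb. Esrrb, an orphan receptor of the naive network, had 11.75, 11.70 and 11.76 in ES Stra8, against 10.72, 10.76 and 10.57 in ES 129SV (1.06 ± 0.08). Tcl1, a cofactor of the kinase Akt, rose by 1.22, Dppa3, which shields DNA methylation in the early embryo, by 1.16, Fbxo15 by 0.95, Gdf3 by 0.80, and Prdm14, a repressor of DNA methyltransferase genes, by 0.70. Zfp42 rose by 0.56 ± 0.15, and Klf4 did not pass (0.14 ± 0.06, limma adjusted p = 0.0756). The falls were Eras (-0.96), Gbx2 (-0.78), Utf1 (-0.78) and Pou5f1.

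Genes of the primed epiblast were lower: 2 of 14 rose and 10 fell (median -0.50), against 21.3% and 20% of all genes. Lef1, a Wnt-responsive transcription factor, had 7.51, 7.42 and 7.44 in ES Stra8, against 10.07, 10.01 and 10.02 in ES 129SV (-2.57 ± 0.07). Dnmt3b, the de novo DNA methyltransferase, had 9.64, 9.68 and 9.66 in ES Stra8, against 11.23, 11.21 and 11.21 in ES 129SV (-1.55 ± 0.06). Fgf5 fell by 0.58 ± 0.08, and the epiblast factors Pou3f1 by 0.66 and Foxd3 by 0.56, while Zic5 rose by 0.82. Otx2 (-0.22) fell with a call that was lost when some arrays were left out. In the 2-cell-like list 0 of 6 changed (median 0.09). Among DNA methylation and Polycomb genes 8 of 23 rose and 7 fell (median 0.07), with the dioxygenase Tet1 at 0.90 and the Polycomb methyltransferase Ezh1 at 0.73.

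The Nodal antagonists rose while their ligand did not. Lefty2 had 10.84, 10.87 and 10.95 in ES Stra8, against 8.29, 8.41 and 8.29 in ES 129SV (2.56 ± 0.07, 5.89-fold), and Lefty1 had 10.60, 10.49 and 10.58 in ES Stra8, against 8.72, 8.55 and 8.69 in ES 129SV (1.90 ± 0.09, 3.73-fold). The groups did not overlap for either, as for 56.9% of all genes. Nodal fell by 0.29 ± 0.07, and the activin subunit Inhba by 1.94. In the Nodal and activin list as a whole 4 of 17 rose and 7 fell (median -0.08), against 21.3% and 20% of all genes.

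Other signalling lists held more falls than rises, where 21.3% of all genes rose and 20% fell. BMP and Id genes rose in 1 and fell in 10 of 17 (median -0.54), with the ligand Bmp4 at -1.13 ± 0.10, the inhibitor of differentiation Id3 at -1.06 and Id4 at 1.08. Wnt genes rose in 4 and fell in 9 of 22 (median -0.21), with the ligands Wnt5a at -2.0 and Wnt11 at -1.13 and the extracellular inhibitor Notum at -0.91. FGF and ERK feedback genes rose in 2 and fell in 12 of 22 (median -0.22), with the ERK-responsive factors Etv1 at -1.36 and Etv4 at -1.11, the receptor Fgfr1 at -1.02 and the inhibitor Spry2 at -0.91. Retinoid genes rose in 2 and fell in 10 of 19 (median -0.31), with the retinal reductase Dhrs3 at -1.56 and the retinoic acid receptor Rarg at -1.09.

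The Hedgehog list held 5 rises and 3 falls among 13 genes (median 0.02), against 21.3% and 20% of all genes. Hhip, a membrane protein that sequesters Hedgehog ligands, had 8.35, 8.28 and 8.44 in ES Stra8, against 5.80, 5.51 and 5.91 in ES 129SV, a change of 2.61 ± 0.12 (limma adjusted p = 2.65e-11). Gli1, the target that reports pathway activity, rose by 0.68 ± 0.09, and Ptch1, the receptor and feedback target, by 0.23. The coreceptor Boc fell by 1.31.

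Lineage lists were mostly lower or mixed. For comparison, 21.3% of all genes rose and 20% fell. Endoderm and extraembryonic genes rose in 1 and fell in 17 of 26 (median -0.39). Srgn, a proteoglycan of parietal endoderm and blood cells, had 7.72, 7.69 and 7.85 in ES Stra8, against 10.68, 10.65 and 10.50 in ES 129SV (-2.86 ± 0.08), the endocytic receptor Cubn fell by 2.69, thrombomodulin (Thbd) by 1.98, the endoderm factor Gata6 by 0.95 and Sox17 by 0.39. Trophectoderm genes rose in 4 and fell in 7 of 17 (median -0.16). The keratin Krt19 had 7.31, 7.19 and 7.18 in ES Stra8, against 10.22, 10.38 and 10.36 in ES 129SV (-3.09 ± 0.06), whereas Tfap2c, a factor of trophectoderm and germ cells, rose by 1.23 ± 0.06 and Cdx2 did not pass (0.07). Mesoderm genes rose in 1 and fell in 4 of 15 (median -0.07), neural genes rose in 3 and fell in 4 of 17 (median -0.01), with the neuronal tubulin Tubb3 at 1.28 and the neural factor Pax6 at 1.07, and Hox genes rose in 2 and fell in 15 of 37 (median -0.20), none by 2-fold.

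Nr1h5, the nuclear receptor FXR-beta, had the highest measured change. It had 8.99, 8.90 and 9.03 in ES Stra8, against 4.52, 4.17 and 4.41 in ES 129SV, a change of 4.61 ± 0.10 (limma adjusted p = 5.52e-15). Its neighbour Sycp1, the transverse filament protein of the synaptonemal complex, had 7.76, 7.74 and 7.71 in ES Stra8, against 5.53, 5.55 and 5.63 in ES 129SV (2.17 ± 0.06). Every ES Stra8 array lay above every ES 129SV array for both, as for 28.9% of all genes, and ES 129SV was dim for both. The genes lie 3.56 kb apart on chromosome 3 (GRCm38.p6), Sycp1 at chr3:102818499-102936100 and Nr1h5 at chr3:102939658-102964291. Within 500 kb on either side 10 genes were measured, of which 6 rose, 2 of them at least 2-fold, and 0 fell. Besides Nr1h5 and Sycp1, the other 8 changed by -0.05 to 0.48, with rises of Trim33 (0.48), Tspan2 (0.47), Nras (0.37) and Sike1 (0.16).

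Germline genes moved in both directions with more rises than falls. In the germline and meiosis list 20 of 41 rose and 10 fell (median 0.16), against 21.3% and 20% of all genes. Sycp3, an axial element of meiotic chromosomes, had 9.48, 9.54 and 9.63 in ES Stra8, against 7.21, 6.56 and 6.95 in ES 129SV (2.65 ± 0.18). The intercellular bridge protein Tex14 rose by 1.71 ± 0.07, the meiotic recombinase Dmc1 by 1.08, Sycp2 by 0.89 and the helicase Ddx4 by 0.46. Meiob, a meiotic single-strand DNA binding protein among the 20 largest rises, had 6.25, 6.22 and 6.18 in ES Stra8, against 4.36, 4.06 and 4.12 in ES 129SV (2.04 ± 0.17).

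Other germ cell genes fell. Tdrd7, a Tudor protein of germ granules, had 7.61, 7.5 and 7.39 in ES Stra8, against 9.59, 9.74 and 9.40 in ES 129SV (-2.07 ± 0.09), the ADP/ATP carrier Slc25a31 fell by 1.54 and the RNA-binding protein Dazl by 1.45 ± 0.10. Stra8, the gene in the name of the background, had 5.46, 6.17 and 5.90 in ES Stra8, against 6.52, 6.52 and 6.56 in ES 129SV (-0.69 ± 0.12, limma adjusted p = 0.000196). Both groups were dim for this gene, so the size of its fall is uncertain. All 3 ES Stra8 arrays lay below the ES 129SV arrays, as for 28.1% of all genes. Whether the probe set reads any of the reporter transgene is not given in the sources used here. The locus Gt(ROSA)26Sor was not analysed here. Of 23 spermatogonial genes 6 rose and 7 fell (median -0.02), against 21.3% and 20% of all genes. Id4 changed by 1.08, the GDNF receptor chains Ret by 0.46 and Gfra1 by -0.82, and the receptor Kit by -0.14, which did not pass.

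The miRNA genes between Dlk1 and Dio3 rose together. Of 40 measured 39 rose, 29 at least 2-fold, 0 fell, and the median was 1.40 (range 0.15 to 3.34). Among the 260 other miRNA genes 54 rose and 20 fell with a median of 0.01, and 9 rose and 0 fell at least 2-fold. These 9 included Mir106a, Mir19b-2, Mir20b and Mir363 on the X chromosome and Mir19a, Mir19b-1 and Mir20a on chromosome 14. Each of those named also rose at least 2-fold in adult Stra8. The miRNA genes between Dlk1 and Dio3 made up 8 of the 20 largest rises and 29 of the 224 genes with a rise of at least 2-fold. The array reads the precursor or the host transcript, not the mature miRNA.

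Mature sequences of 8 miRNA genes among the 20 largest rises, and miR-376b-5p for its seed, are printed from RefSeq (GRCm38.p6) with the seed, bases 2 to 8, in capitals, and those that share a seed stand beside each other.
miR-495-5p: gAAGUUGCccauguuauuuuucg
miR-495-3p: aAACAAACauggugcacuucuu
miR-379-5p: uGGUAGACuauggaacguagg
miR-379-3p: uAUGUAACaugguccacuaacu
miR-411-3p: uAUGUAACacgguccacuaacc
miR-411-5p: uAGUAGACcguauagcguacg
miR-376a-5p: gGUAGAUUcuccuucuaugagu
miR-376a-3p: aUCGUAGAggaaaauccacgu
miR-376b-5p: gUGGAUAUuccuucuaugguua
miR-376c-5p: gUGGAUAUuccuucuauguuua
miR-377-5p: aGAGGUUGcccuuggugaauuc
miR-377-3p: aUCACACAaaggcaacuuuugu
miR-154-5p: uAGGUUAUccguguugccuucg
miR-154-3p: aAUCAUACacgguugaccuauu
miR-380-5p: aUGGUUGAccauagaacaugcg
miR-380-3p: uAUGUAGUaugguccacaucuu
All lie on the plus strand of chromosome 12, from chr12:109709065-109709085 for miR-379-5p to chr12:109740553-109740574 for miR-377-3p. The 29 genes with a rise of at least 2-fold matched 55 mature sequences, of which 4 shared a seed: miR-379-3p with miR-411-3p, and miR-376b-5p with miR-376c-5p. Each other seed occurred once among them.

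Mir495 had 8.0, 8.14 and 8.09 in ES Stra8, against 4.52, 4.75 and 4.92 in ES 129SV, a change of 3.34 ± 0.20 (limma adjusted p = 6.84e-10). Mir379 had 7.64, 7.30 and 7.55 in ES Stra8, against 4.82, 4.59 and 5.04 in ES 129SV (2.68 ± 0.25), and Mir377 had 9.42, 9.33 and 9.35 in ES Stra8, against 7.24, 7.09 and 7.32 in ES 129SV (2.15 ± 0.12). Mir495 and Mir379 were dim in ES 129SV. For 39 of the 40 genes the ES Stra8 arrays lay above all ES 129SV arrays, against 28.9% of all genes. Mir666 was the exception, with 0.15 ± 0.08 and overlapping arrays. The 30 genes from Mir379 onward had a median of 1.69, and the 10 before it a median of 1.07.

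The noncoding RNAs Meg3 and Rian rose with them. By position, the miRNA genes from Mir379 onward lie beyond both. Meg3 had 12.75, 12.65 and 12.70 in ES Stra8, against 11.39, 11.33 and 11.41 in ES 129SV (1.32 ± 0.05, 2.50-fold), and Rian had 10.14, 10.12 and 10.10 in ES Stra8, against 8.53, 8.67 and 8.49 in ES 129SV (1.55 ± 0.07). Of the genes expressed from the paternal chromosome, Dlk1, a Delta-like transmembrane protein, had 8.65, 8.62 and 8.66 in ES Stra8, against 9.79, 9.89 and 9.83 in ES 129SV (-1.19 ± 0.06). Rtl1, a retrotransposon-derived gene overlapped by antisense miRNA genes, rose by 0.59, and the deiodinase Dio3 did not pass (-0.03). Rtl1 and the miRNA genes opposite it overlap, so their signals are uncertain. Dlk1 and the maternally expressed transcripts moved in opposite directions.

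**Figure D4:**
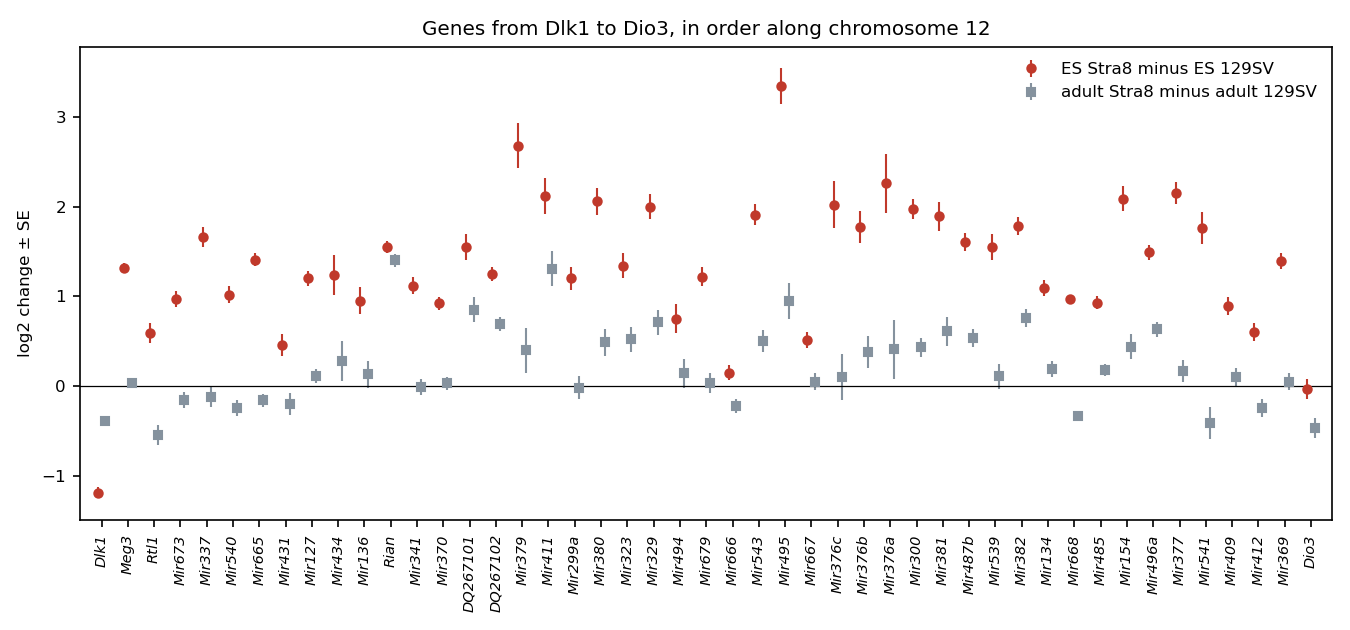
Log2 change ± SE (vertical axis, 3 arrays per group) of the genes from Dlk1 to Dio3 in their order along chromosome 12 (horizontal axis, not to scale), for ES Stra8 minus ES 129SV (circles) and adult Stra8 minus adult 129SV (squares). Of the miRNA genes all but Mir666 rose in ES Stra8, while Dlk1 fell.

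In adult cells the same miRNA genes changed less, as the plot of the domain shows. There 13 of the 40 rose and 3 fell between adult Stra8 and adult 129SV, against 24.2% and 26.8% of all genes. Their adult median was 0.14. The difference between the ES and the adult change was called positive for all 40, against 21.8% of all genes. Meg3 changed by 0.03 in adult cells and did not pass, whereas Rian rose by 1.40, close to its rise in ES cells, and the difference for Rian did not pass (0.15, limma adjusted p = 0.249).

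Imprinted genes as a whole changed in both directions, where 21.3% of all genes rose and 20% fell. Among genes expressed from the paternal copy 11 of 22 rose and 7 fell (median 0.12), and among those expressed from the maternal copy 5 of 20 rose and 9 fell (median -0.15), with the members of the Dlk1-Dio3 domain counted in. The growth factor Igf2 had 8.44, 8.40 and 8.40 in ES Stra8, against 10.33, 10.34 and 10.32 in ES 129SV (-1.92 ± 0.05). The zinc finger gene Peg3 had 10.90, 10.85 and 10.90 in ES Stra8, against 9.40, 9.37 and 9.28 in ES 129SV (1.53 ± 0.07), and Mest, a hydrolase-family gene, rose by 1.23 ± 0.06. The trophoblast factor Ascl2 fell by 1.03 and the growth inhibitor Grb10 rose by 0.62. H19 was not analysed here.

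Sex-linked genes also differed. Of 8 Y-linked genes 5 fell and 0 rose (median -0.45). Uty, a demethylase-family gene, had 7.68, 7.82 and 7.84 in ES Stra8, against 8.46, 8.41 and 8.43 in ES 129SV (-0.65 ± 0.10), and Kdm5d had 5.70, 5.67 and 5.65 in ES Stra8, against 6.42, 6.33 and 6.25 in ES 129SV (-0.66 ± 0.12). The translation factor Eif2s3y (-0.51) and the enzyme Uba1y (-0.67) fell too, as did Usp9y (-0.26), whose call was lost when some arrays were left out. Xist, the RNA of X inactivation, had 7.51, 7.39 and 7.47 in ES Stra8, against 8.63, 8.78 and 8.70 in ES 129SV (-1.25 ± 0.13), and Rlim, an activator of Xist, rose by 0.80, which made 1 rise and 1 fall in the list of 2.

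Proliferation genes were slightly higher in ES Stra8. Over all genes tested, 21.3% rose and 20% fell. In the cell cycle list 15 of 27 rose and 0 fell (median 0.16), with the proliferation marker Mki67 at 0.75 ± 0.07 and the topoisomerase Top2a at 0.73. Among cyclins, CDK inhibitors and p53 targets 3 of 17 rose and 6 fell (median -0.04), with the cyclin Ccnd2 at -1.03. Immediate-early genes rose in 3 and fell in 14 of 21 (median -0.37), led by the survival factor Ier3 (-2.60) and Myc (-1.35), while the zinc finger factor Egr1 rose by 0.50.

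Of 30 ATF4 targets of the amino acid stress response 23 rose, none by 2-fold, and 4 fell, against 21.3% and 20% of all genes. Their median was the highest of the 41 lists (0.38). The falls were the mTORC1 inhibitor Ddit4 (-1.25), the lipoprotein receptor Vldlr (-1.09) and the amino acid transporters Slc7a11 (-0.47) and Slc7a3 (-0.44). Trib3, a pseudokinase that feeds back on ATF4, had 11.06, 11.04 and 10.97 in ES Stra8, against 10.07, 10.07 and 10.18 in ES 129SV (0.92 ± 0.07), the glutathione-degrading enzyme Chac1 rose by 0.76, the amino acid transporter Slc7a5 by 0.72 and Atf4 itself by 0.46. Cholesterol synthesis genes rose in 0 and fell in 12 of 18 (median -0.27, none by 2-fold), and respiratory chain genes rose in 2 and fell in 12 of 39 (median -0.09). Of 11 autophagy receptor genes 7 rose and 2 fell (median 0.25), with the reticulophagy receptor Retreg1 at 1.09, the receptors Calcoco2 at 0.85 and Calcoco1 at 0.58, and the ATG8 protein Gabarapl2 at -1.38.

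Adult cells offer the same pair of backgrounds on other arrays. Those arrays do not enter the ES means, but the fit shares its spread over all 18 arrays. Between adult Stra8 and adult 129SV 10173 genes were called (51.0%), 4824 higher (24.2%) and 5349 lower (26.8%), and 974 at least 2-fold (4.89%), of which 3.55% of all genes were higher and 1.33% lower. The difference between the ES and the adult change was called for 43.1% of genes, positive for 21.8% and negative for 21.3%, and it reached 2-fold for 8.62% (2.3% positive and 6.32% negative). Of all genes 17.7% were called the same way in ES and adult cells and 11.1% in opposite ways. Across genes the ES and adult changes had a Pearson r of 0.12 and a Spearman rho of 0.18, given as a description since genes are not independent.

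The genes with large ES changes were also read in adult cells, where 24.2% of all genes rose and 26.8% fell in Stra8. Of the 224 genes with a rise of at least 2-fold in ES Stra8, 165 also rose in adult Stra8 and 19 fell there, with an adult median of 0.71. Of the 681 genes with such a fall, 320 rose in adult Stra8 and 173 fell there, with an adult median of 0.18. The share of them that fell there was near that of all genes. At least 2-fold in both cell types, 84 genes rose and 18 fell the same way, and 80 fell in ES Stra8 while rising in adult Stra8, with 5 the other way round. Over all genes tested, 0.421% rose and 0.0903% fell in both (0.512% together), and 0.401% and 0.0251% moved in the 2 opposite ways (0.426% together).

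Nr1h5 led the shared rises. In adult cells it averaged 10.37 in Stra8, against 4.53 in 129SV, a change of 5.84. Sycp1 rose by 3.38 there and Sycp3 by 2.0, so these 3 genes stood high in both Stra8 groups. The water and glycerol channel Aqp3 had 11.60, 11.64 and 11.69 in ES Stra8, against 9.24, 9.19 and 9.25 in ES 129SV (2.42 ± 0.07), and it rose by 2.38 in adult Stra8.

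Metabolic and noncoding genes were also among the shared rises. The epoxide hydrolase Ephx2 rose by 2.05 in ES and 2.57 in adult Stra8, and the glutathione transferase Gstt2 by 2.29 and 2.03. Gas5, a snoRNA host gene, had 12.78, 12.71 and 12.70 in ES Stra8, against 10.68, 10.71 and 10.74 in ES 129SV (2.02 ± 0.05), and it rose by 1.76 in adult Stra8. Acss1, a mitochondrial acetyl-CoA synthetase, rose by 1.81 and 2.11, the potassium channel Kcnt2 by 1.78 and 2.60, and the miRNA gene Mir106a by 1.74 and 1.91.

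The shared falls were smaller. Itga3, an integrin that binds laminin, had 7.99, 8.06 and 8.15 in ES Stra8, against 9.75, 9.81 and 9.64 in ES 129SV (-1.67 ± 0.07), and it fell by 1.69 in adult Stra8. The uridine phosphorylase Upp1 fell by 2.07 in ES and 1.65 in adult Stra8, the adenylate kinase Ak4 by 2.06 and 1.47, the lactate exporter Slc16a3 by 1.84 and 1.34, Gabarapl2 by 1.38 and 1.42, and Bmp4 by 1.13 and 1.42. The elongation factor gene Tcea3 (-1.52 and -1.65), the receptor activity modifier Ramp3 (-1.27 and -1.23), the Polycomb-associated Sfmbt2 (-1.27 and -1.15) and the actin-binding Twf2 (-1.11 and -1.17) completed the 10. The Stra8 gene fell by 0.70 in adult Stra8 and by 0.69 in ES Stra8, and both ES groups were dim for it.

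**Figure D5:**
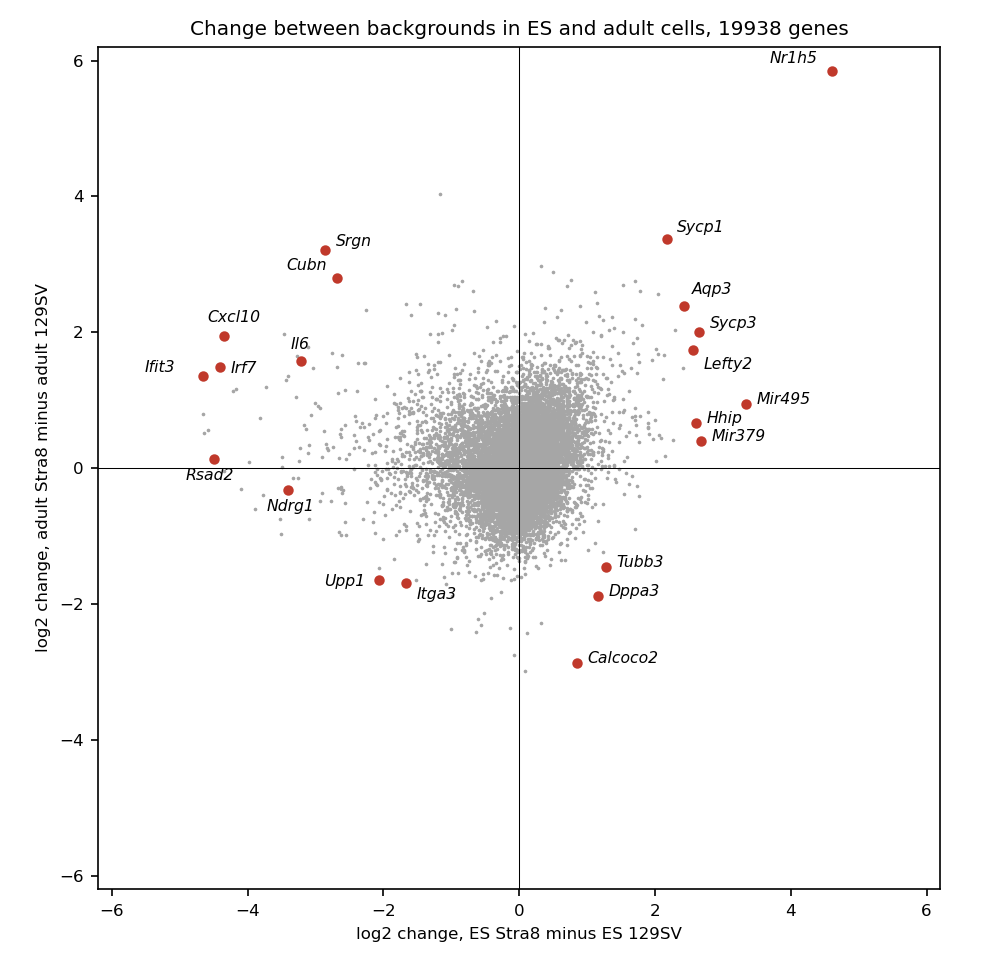
Log2 change between the backgrounds in ES cells (horizontal axis) and in adult cells (vertical axis) for 19938 genes (grey), with 21 named genes in red. Nr1h5, Sycp1, Sycp3, Aqp3 and Lefty2 lie far up in both, while Ifit3, Irf7, Cxcl10, Il6, Srgn and Cubn lie low in ES and high in adult cells.

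The interferon lists gave mixed changes in adult cells, where 24.2% of all genes rose and 26.8% fell in Stra8. There the antiviral effectors had a median of 0.07, with 13 of 32 higher and 5 lower in Stra8. The difference between the ES and the adult change was called negative for 29 of the 32, against 21.3% of all genes. Irf7 averaged 8.80 in adult Stra8, against 7.30 in adult 129SV, a rise of 1.49, and Cxcl10 averaged 9.24, against 7.30 (1.94). Rsad2 changed by 0.13 and did not pass. The MHC class I list had 11 of 16 genes lower and 3 higher in adult Stra8 (median -0.32), the GTPases 3 of 8 lower and 2 higher (median -0.14), interferon signalling 7 of 19 lower and 9 higher (median 0.14), sensors 5 of 17 lower and 9 higher (median 0.23), and chemokines 1 of 18 lower and 10 higher (median 0.31). Tapbp (-0.75 in adult cells), Gbp3 (-0.60) and Tap1 (-0.30) fell in both cell types. The plot of ES against adult changes shows named genes of either kind of change. The hypoxia and glycolysis list had an adult median of -0.04, with 10 of 33 higher and 14 lower, and the difference was called negative for 29. Fibroblast genes had an adult median of 0.22 and endoderm genes one of 0.40.

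Median changes of the autosomes lay close together, with those of chromosomes 8 and 11 the highest. The median over genes was 0.061 for chromosome 8 and 0.050 for chromosome 11, and between -0.042 and 0.019 for the 17 other autosomes. It was -0.024 for the X chromosome, and -0.387 for the 9 genes of the Y chromosome. Genes called higher made up 34.8% and 32.7% of the genes of chromosomes 8 and 11, against 21.3% of all genes. On the other autosomes this share ran from 15.8% (chromosome 6) to 29.0% (chromosome 12). Each of the 3 ES Stra8 arrays gave a positive median, from 0.070 to 0.086 for chromosome 8 and from 0.047 to 0.076 for chromosome 11, relative to the ES 129SV mean. With genes that were dim in all compared groups left out the medians were 0.156 and 0.135, and between -0.043 and 0.058 for the other autosomes. In adult cells both chromosomes had negative medians, -0.201 and -0.203, against -0.126 to 0.093 for the 17 other autosomes. No test was made of these medians, and chromosome number was not measured.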

How the data were processed

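Total RNA of 18 samples was hybridised to Affymetrix Mouse Gene 1.0 ST arrays, 3 per group. The deposited log2 signals come from Affymetrix Expression Console (version not given in the sources used here) and its RMA method, as named in the submitters' processing notes. RMA sets all arrays to one distribution, so it can hide a shift shared by most genes. The platform annotation gave 1 gene symbol to 21789 of 35556 probe sets, several to 1621 and none to 12146. Unnamed probe sets and those with several symbols were left out, and for 999 genes with several probe sets the brightest on average was used, which left 19938 genes. RefSeq (GRCm38.p6) matched 21698 probe sets and changed 0 symbols.

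Group means were fitted over the 18 arrays together in limma 3.58.1 with R 4.3.3 (12 residual and 3.78 prior degrees of freedom), and p-values were adjusted by Benjamini-Hochberg over all genes. The difference between the ES and the adult change was a contrast of the same fit. Lists (885 genes in 41 lists, 805 measured), members and tests were chosen with earlier results of these data known. Genes were named by rule: the 20 largest rises and 20 largest falls, up to 5 called genes per list and direction, preset key genes, 10 genes per direction shared with adult cells, and 5 per direction with the largest difference between cell types. Further list members were named after their values were seen. Alternatives were array weights, only the compared arrays, median centring, a second quantile normalisation, an intensity trend, dim genes left out (below log2 7), the mean of probe sets, every probe set, a replicate block and leaving out each ES array. The fit was tested on simulated data. Python 3.11.15 and pandas 2.3.3 made the summaries. The number of arrays limits the precision. Where a gene is said not to be analysed here, it was not used.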

Additional observations from a re-analysis of the deposited data

Results flagged for a closer look

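The change between the backgrounds differed between ES cells and adult cells for 8588 genes (43.1%) by the contrast of the 2 changes (limma adjusted p under 0.05). The most negative differences, ES change minus adult change on the log2 scale, were those of Cxcl10 (-6.29), Srgn (-6.07), Ifit3 (-6.01), Irf7 (-5.89) and Cubn (-5.49). Each of these genes fell in ES Stra8 and rose in adult Stra8. Srgn changed by -2.86 in ES and by 3.21 in adult cells, and Cubn by -2.69 in ES and by 2.80 in adult cells. The most positive differences were those of Calcoco2 (3.71), Snord118 (3.07), Dppa3 (3.05), Tubb3 (2.74) and Enpp3 (2.68). Calcoco2 rose by 0.85 in ES Stra8 and fell by 2.87 in adult Stra8, Dppa3 rose by 1.16 and fell by 1.89, and Tubb3 rose by 1.28 and fell by 1.46. The small RNA gene Snord118 changed by 0.08 in ES and by -2.99 in adult cells, and the ectonucleotidase Enpp3 by -0.07 in ES and by -2.75 in adult cells.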

How the results depend on the processing

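The number of genes called between ES Stra8 and ES 129SV was 8248, and it ranged from 7275 to 7542 when 1 ES array was left out and from 7910 (dim genes left out) to 10354 (array weights) under the other alternatives. Of the 8248, 4255 rose and 3993 fell. With arrays centred on their medians 5050 rose and 3415 fell, and after a second quantile normalisation 4956 rose and 3729 fell. The balance of rises and falls thus depended on the normalisation. Falls of at least 2-fold numbered 681, with 672 to 694 when 1 ES array was left out, 610 with arrays centred on their medians and 619 after a second quantile normalisation. Rises of at least 2-fold numbered 224, with 209 to 238, 263 and 241 under the same alternatives. The median was below 0 for 32 of the 41 lists, for 29 with centred arrays and for 31 after quantile normalisation. Of 592 called genes among the 844 named or listed, 68 lost the call when some ES array was left out and 71 under some alternative. Pou5f1 lost it with centred arrays (-0.26, limma adjusted p = 0.0517). Hk1 was -0.92 (limma adjusted p = 2.8e-09) with the mean of its probe sets, against 0.02 with the brightest, and the cause was not tested. The gap between the highest and the lowest autosome median was 0.103, and it was 0.110 with array weights, 0.199 with dim genes left out and 0.105 to 0.124 when 1 ES array was left out. Deviations of arrays with the same replicate number had correlations of 0.037, 0.031 and -0.041, so the numbers did not pair the samples. With the replicate number as a block 8226 genes were called and 905 at least 2-fold, and 10225 were called between the adult groups and 8604 for the difference between cell types. Signal near background, under log2 7 in either group, limits the folds of genes such as Nr1h5, Mir495 and Ifit3.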
